A study of Homo sapiens with 4 samples.

Results

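The 45 DNA repair genes described here were chosen by name from 50868 genes with deposited expression values. They are the FANC genes A to M, the RAD50 to RAD54 group with its lettered paralogs, and the XRCC, ERCC, BRCA, MSH, MLH, PMS and PARP1 to PARP3 genes, without pseudogenes. Expression was measured by stranded mRNA sequencing of KBM5, an established BCR-ABL-positive cell line from the blast crisis of chronic myeloid leukemia. The groups were cells given IM and DSF together (IM-DSF), IM alone, DSF alone and an untreated control (CTR), with 1 library each. The labels give no dose or time and do not spell out the codes, taken here to stand for imatinib, which blocks the BCR-ABL kinase, and disulfiram. All 4 libraries come from this single cell line, and no other line is analysed here. The title asks what combined targeting of GPX4 and BCR-ABL does to leukemia stem cells.

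Repair genes are grouped by the lesion they act on. The Fanconi anemia proteins unhook DNA interstrand crosslinks: a core complex attaches ubiquitin to the FANCI-FANCD2 clamp, and homologous recombination then restores the broken strand. Mismatch repair corrects replication errors, nucleotide excision repair cuts out bulky lesions, PARP1 and XRCC1 act on single-strand breaks, and the Ku proteins start end joining. Many of these genes are transcribed most in cells that are copying their DNA.

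The values are FPKM (fragments divided by gene length in kilobases and by library depth), so levels of different genes can be compared. Denominators were 12.4 M, 15.8 M, 14.7 M and 14.5 M fragments in IM-DSF, IM, DSF and CTR (M is 1e+06), and between 10677 and 11238 genes reached 1 FPKM. Of the 45 genes, 41 averaged 1 FPKM or more over the libraries and are called measured. A difference is the first library minus the second in log2(FPKM + 1), a scale that shrinks differences of low genes. The size rules were 1 log2 unit and, for smaller shifts, 0.5. With 1 library per group there was no replicate check and no test. Ratios of FPKM carry an approximate 95% interval for the counting of fragments alone; variation between cultures is outside it. In bulk RNA, fewer cells of a type and less RNA per cell cannot be told apart. Of 9 erythroid markers, 6 were listed at 0 in every library, and the summed FPKM of the list was 0.501 to 0.703. The lymphoid markers CD3E, MS4A1 and CD2 and the megakaryocyte markers PF4, PPBP and GP1BA were also listed at 0. The lymphoid list of 8 summed to 11.4 to 13.8 FPKM, nearly all from NKG7 (10.8 to 13.3), and the megakaryocyte list of 5 to 0.182 to 0.486. Myeloid markers were abundant, with summed FPKM of 2678 in IM-DSF, 2760 in IM, 2174 in DSF and 1596 in CTR. However, the progenitor marker KIT was listed at 0 in every library, and CD34 at 0 in all but CTR (0.0055 FPKM).

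Promoter sequence is shown for 4 of the genes, chosen after their values were seen. RAD54L and PARP1 were lower with IM, ERCC6 was higher, and FANCC holds 2 E2F-type matches. Each line gives the 250 bases before the RefSeq start (GRCh38.p14), 5′ to 3′ on the gene's strand, with no annotated exon inside. Capitals mark matches to TTTCGCGC, TTTGGCGC, TTTCCCGC or TTTGCCGC (E2F-type), TTTGAA (the cell cycle homology region) or CCAAT, on either strand.
RAD54L, chr1:46247438-46247687, plus strand: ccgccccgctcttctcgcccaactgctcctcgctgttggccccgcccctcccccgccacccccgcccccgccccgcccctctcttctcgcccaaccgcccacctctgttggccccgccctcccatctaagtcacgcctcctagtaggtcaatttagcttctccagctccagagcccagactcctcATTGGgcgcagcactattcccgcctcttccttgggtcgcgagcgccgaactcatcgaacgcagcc
PARP1, chr1:226408094-226408343, minus strand: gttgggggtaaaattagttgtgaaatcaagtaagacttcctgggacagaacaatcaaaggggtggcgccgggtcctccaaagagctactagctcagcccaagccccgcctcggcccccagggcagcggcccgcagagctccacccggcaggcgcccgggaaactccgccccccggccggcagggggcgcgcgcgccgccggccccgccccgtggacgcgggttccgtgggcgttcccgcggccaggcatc
FANCC, chr9:95317710-95317959, minus strand: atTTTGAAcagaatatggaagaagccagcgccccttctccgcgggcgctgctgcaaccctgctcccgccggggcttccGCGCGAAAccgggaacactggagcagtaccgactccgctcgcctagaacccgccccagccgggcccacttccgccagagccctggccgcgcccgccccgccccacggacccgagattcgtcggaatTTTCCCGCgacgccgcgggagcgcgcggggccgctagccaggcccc
ERCC6, chr10:49539539-49539788, minus strand: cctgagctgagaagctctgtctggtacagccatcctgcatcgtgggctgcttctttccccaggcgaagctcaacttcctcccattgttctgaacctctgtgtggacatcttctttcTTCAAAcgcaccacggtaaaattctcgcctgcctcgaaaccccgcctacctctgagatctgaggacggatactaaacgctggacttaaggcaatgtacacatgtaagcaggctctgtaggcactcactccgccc

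RefSeq promoters (250 bases before to 50 after the start) matched 39 of the 45 genes; those of FANCI, RAD54B and XRCC5 are among the ones not shown or searched here. E2F-type letters were present in 8 of the 39 (20.5%), namely FANCA, FANCC, FANCD2, MSH3, MSH6, PMS2, XRCC2 and XRCC6, and in 3.99% of 27305 genes with a promoter. CCAAT was present in 43.6% of the 39 and 39.7% of all, and TTTGAA in 12.8% and 18.2%. A gene was counted if any of its listed promoters held a match. The 27305 genes were not limited to measured or protein-coding ones, so these shares do not compare like with like. In RAD54L a CCAAT match on the reverse strand began 65 bases before the start. A second CCAAT match there began 2 bases before the start and ran past the printed window. FANCC held E2F-type letters beginning 172 and 46 bases before the start. These matches are letters in a window and show no binding.

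The end-joining gene XRCC6, which encodes the Ku70 subunit that clamps broken DNA ends, was the most abundant, with a mean of 106 FPKM. PARP1, the sensor of strand breaks that builds poly(ADP-ribose), followed at 63.3 FPKM and XRCC5, the Ku80 subunit, at 49.7. The remaining 4 genes lay under the 1 FPKM mean: the meiotic MSH4 at 0.0295, RAD51B at 0.375, the core subunit FANCF at 0.459 and the mismatch repair gene MLH3 at 0.482. MSH4 was listed at 0 in DSF and CTR. Of the 41 measured genes, 31 spanned less than 1.5-fold between their highest and lowest library and 39 less than 2-fold; the exceptions were ERCC5 and ERCC6. CTR was the highest library for 18 genes and IM-DSF the lowest for 17. Shares of all genes with such spans and orders are not given here, so these counts have no background beside them.

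**Figure D1:**
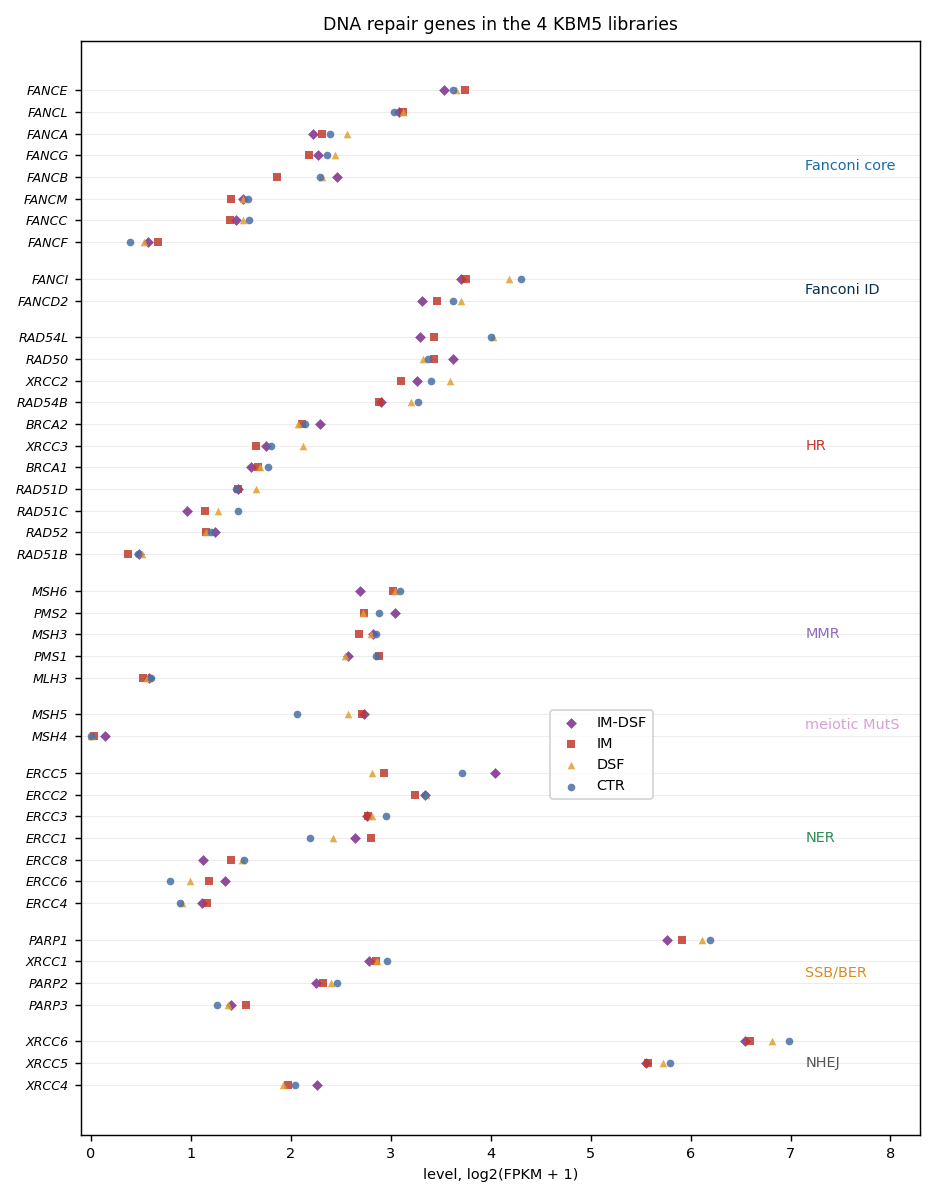
Levels of the repair genes reported here as log2(FPKM + 1) on the horizontal axis, with 1 marker per library (IM-DSF, IM, DSF and CTR) and genes grouped by repair pathway. XRCC6, PARP1 and XRCC5 lie furthest right, and in each of them the IM-DSF and IM markers lie left of DSF and CTR.

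The effect of IM on its own is the difference of IM from CTR. Repair genes lay slightly lower in IM: 31 of the 41 were below CTR, beside 46.9% of all 11004 genes tested, and 10 above, beside 53.1%; their median difference was -0.14, beside 0.02 over all genes. None passed 1 log2 unit, which 1.54% of all genes did upward and 0.891% downward. At 0.5 units, ERCC5, RAD54L and FANCI were lower (5.67% of all genes) and MSH5 and ERCC1 higher (9.38%), counts not far from those shares.

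IM-DSF against DSF asks the same question in cells that also received DSF, and it shares no library with IM against CTR. There 27 of the 41 lay lower in IM-DSF, beside 48.3% of all genes, and 14 higher, beside 51.7%, with a median of -0.09 beside 0.01. ERCC5 alone passed 1 unit upward (1.33% of all genes) and none downward (1.05%). At 0.5 units ERCC5 was again the only gene higher (7.66%), and RAD54L the only gene lower (6.92%).

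Adding DSF to IM, as IM-DSF against IM, left 22 of 41 repair genes lower (50.3% of all genes) and 19 higher (49.7%), with a median of -0.02. Rescaled to TPM the split was 17 lower and 24 higher. The shares of all genes are from values without that rescaling. ERCC5 passed 1 unit upward (0.7% of all genes) and none downward (1.04%). At 0.5 units ERCC5 and FANCB were higher (3.19%) and none lower (4.65%).

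The combination, IM-DSF against CTR, had 27 of 41 repair genes lower, beside 47.9% of all genes, and 14 higher, beside 52.1%, with a median of -0.13 beside 0.02. None passed 1 unit upward (2.54%) or downward (1.74%). At 0.5 units RAD54L, FANCI and RAD51C were lower (10.4% of all genes) and ERCC6 and MSH5 higher (12.2%). ERCC6 was under 1 FPKM in DSF and CTR and met the mean of 1 FPKM only through IM-DSF and IM, where it was high. With factors from a trimmed mean, which lower the log2 ratio of FPKM in this contrast by 0.10 and differences of low genes by less, 30 of 41 were lower. These factors lower the other genes too, and the 47.9% is from values without them. DSF against CTR left the repair genes close to the control: 25 of 41 were lower, beside 50% of all genes, with a median of -0.05 beside 0.00. No gene passed 1 unit upward (0.545%) or downward (0.573%), and at 0.5 units ERCC5 was lower (2.81%) and MSH5 higher (3.49%). IM against CTR, DSF against CTR and IM-DSF against CTR share the CTR library.

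**Figure D2:**
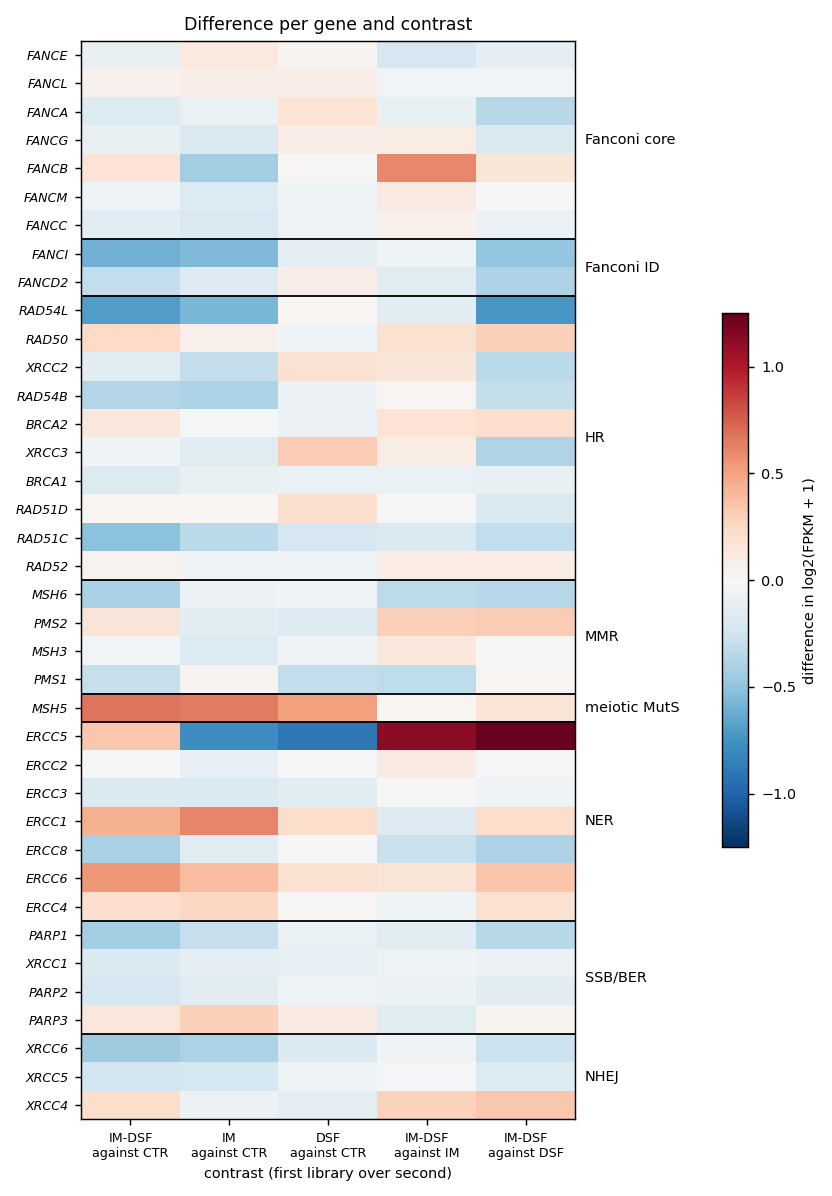
Differences in log2(FPKM + 1) for the measured genes reported here (down the page, grouped by pathway) in 5 contrasts (columns), red where the first library is higher and blue where it is lower. ERCC5 changes colour between contrasts, at -0.78 in IM against CTR and 1.23 in IM-DSF against DSF, while RAD54L and FANCI are blue in both.

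The homologous recombination gene RAD54L had the lowest difference in IM-DSF against DSF, and in IM against CTR the lowest after ERCC5. It (ENSG00000085999; GRCh38.p14 chromosome 1, 46247688 to 46278473), a motor protein that helps a broken strand invade its matching partner, had 8.82 FPKM in IM-DSF, 9.77 in IM, 15.2 in DSF and 15.0 in CTR. RAD54L was lower in both libraries with IM than in both without it, a split whose share over all genes is not given here. The ratio was 0.653 in IM against CTR (95% interval 0.542 to 0.786), 0.579 in IM-DSF against DSF (0.472 to 0.712) and 1.02 in DSF against CTR (0.858 to 1.20). Its exons overlap those of LRRC41 on the opposite strand, which had 3.98 to 4.30 FPKM. RAD54B, the paralog of RAD54L, had 6.49, 6.37, 8.21 and 8.66 FPKM in IM-DSF, IM, DSF and CTR, again lower in both IM libraries.

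RAD51C, a paralog that acts in strand exchange, had 0.944, 1.20, 1.41 and 1.78 FPKM in IM-DSF, IM, DSF and CTR. It was lowest in the combination and highest in CTR, but its combination ratio of 0.531 had a wide interval (0.228 to 1.08). XRCC2, another paralog, was highest in DSF, with 8.56, 7.59, 11.1 and 9.58 FPKM in IM-DSF, IM, DSF and CTR. It was 0.772 times DSF in IM-DSF (0.669 to 0.888) and 0.793 times CTR in IM (0.688 to 0.913). XRCC3, the partner of RAD51C, was also highest in DSF at 3.35 FPKM, against 2.15 to 2.48 in the other libraries. For XRCC3 the counting intervals included 1, both for DSF against CTR (0.919 to 1.99) and for IM-DSF against DSF (0.465 to 1.06).

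Other recombination genes differed little or went the other way. BRCA1, which starts end resection with its partner BARD1, had 2.02, 2.19, 2.23 and 2.41 FPKM in IM-DSF, IM, DSF and CTR, and BRCA2, which acts downstream of resection, had 3.89, 3.33, 3.19 and 3.42. For BRCA2 the ratio of IM-DSF to DSF was 1.22 (1.08 to 1.37), and that of IM to CTR was 0.974 (0.867 to 1.09). RAD50, the coiled-coil subunit of the MRE11 nuclease complex, was highest in IM-DSF at 11.3 FPKM, with 9.79 in IM, 8.97 in DSF and 9.36 in CTR. RAD51D and RAD52, which load and anneal strands, stayed between 1.22 and 2.14 FPKM in every library. BRCA1, RAD51D, RAD52 and RAD54B, like ERCC8 and XRCC1, share exon bases with another gene on the same strand, so their values are uncertain. Exons of FANCA, FANCI, FANCL, MSH3, MSH6, PMS1 and XRCC3 overlap an expressed gene on the opposite strand. Taking all 11 measured recombination genes, 9 were lower in IM than in CTR (median -0.15) and 8 below DSF in IM-DSF (median -0.26). Over all genes tested, 46.9% and 48.3% were lower in these contrasts.

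Both Fanconi clamp subunits were lower with IM. FANCI (chromosome 15, 89243949 to 89317261), a clamp subunit, had 12.0 FPKM in IM-DSF, 12.5 in IM, 17.2 in DSF and 18.8 in CTR. Its ratio was 0.664 in IM against CTR (0.578 to 0.759) and 0.698 in IM-DSF against DSF (0.601 to 0.812). FANCD2, its ubiquitinated partner, had 8.94, 10.02, 12.0 and 11.3 FPKM in IM-DSF, IM, DSF and CTR. The ratio of FANCI to FANCD2 was 1.34 in IM-DSF, 1.24 in IM, 1.43 in DSF and 1.66 in CTR. Counting intervals of that ratio overlapped between IM-DSF (1.15 to 1.57) and CTR (1.47 to 1.87), while that of IM (1.09 to 1.42) lay below that of CTR.

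Among the core complex genes, FANCB, a scaffold subunit, stood out in 1 library. It had 2.62 FPKM in IM, against 4.49 in IM-DSF, 3.95 in DSF and 3.89 in CTR. FANCE, the bridge to FANCD2, was the most abundant core gene at 10.6 to 12.4 FPKM, and FANCL, the ubiquitin ligase, lay between 7.18 and 7.70. FANCA, FANCG, FANCC and FANCM had means of 4.18, 3.98, 1.80 and 1.84 FPKM and no contrast past 0.5 units. Of the 7 measured core genes, 5 were lower in IM than in CTR (median -0.17) and 6 below DSF in IM-DSF (median -0.07). The shares of all genes lower were 46.9% and 48.3%.

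Among mismatch repair genes, 5 of the 6 measured were lower in IM than in CTR (median -0.16), beside 46.9% of all genes. In IM-DSF, 3 of 6 lay below DSF (median -0.05), close to the 48.3% of all genes. MSH6, which detects base mismatches, was lowest in the combination, with 5.44, 7.10, 7.23 and 7.50 FPKM in IM-DSF, IM, DSF and CTR. MSH6 was 0.767 times IM in IM-DSF (0.640 to 0.915). MSH3, which detects longer loops, lay between 5.42 and 6.22 FPKM. So MSH6 stood at 0.900 times MSH3 in IM-DSF (0.750 to 1.08), against 1.31 in IM and 1.21 in both DSF and CTR.

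The PMS genes act after the mismatch has been found. PMS2, the nicking subunit, was highest in IM-DSF at 7.21 FPKM, with 5.66 in IM, 5.58 in DSF and 6.36 in CTR. Its near-identical copies were also measured, PMS2CL at 5.54 to 7.77 FPKM and PMS2P1 at 7.26 to 9.45, so the PMS2 values are uncertain. PMS1 was low in both DSF libraries, with 4.94 FPKM in IM-DSF and 4.84 in DSF, against 6.39 in IM and 6.24 in CTR. MSH5, a meiotic member of the MutS family, had 5.65, 5.56, 4.95 and 3.18 FPKM in IM-DSF, IM, DSF and CTR, lowest in CTR. It shares 2946 exon bases on the same strand with the read-through gene MSH5-SAPCD1 (2.02, 1.39, 1.72 and 1.12 FPKM), so its value is uncertain.

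Nucleotide excision repair spanned the widest range of any pathway in IM against CTR, with differences of -0.78 to 0.61. The ends were ERCC5 and ERCC1, whose values carry limits given below. Of its 7 genes, 4 were lower in IM than in CTR (median -0.11), beside 46.9% of all genes. In IM-DSF against DSF, 3 of the 7 were lower (median 0.19), beside 48.3%. ERCC6, also known as CSB, which recognises RNA polymerase stalled at a lesion, had 1.53 FPKM in IM-DSF, 1.26 in IM, 0.983 in DSF and 0.734 in CTR. The combination was 2.09 times CTR (1.37 to 3.20) and IM was 1.72 times CTR (1.13 to 2.62). The ratio of IM-DSF to DSF was 1.56 (1.06 to 2.30). ERCC6 met the mean of 1 FPKM only through the libraries with IM, so the filter favoured higher values there. ERCC8, which encodes the CSA partner of CSB, lay on the other side, at 1.18, 1.64, 1.84 and 1.89 FPKM, but its combination ratio of 0.624 had an interval from 0.347 to 1.11.

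ERCC1, the non-catalytic partner in the nuclease that cuts on the 5′ side of a lesion, had 5.23 FPKM in IM-DSF, 5.97 in IM, 4.34 in DSF and 3.57 in CTR. IM was 1.67 times CTR (1.24 to 2.31). Its exons share 1593 bases with CD3EAP on the opposite strand, which had 5.88, 5.13, 7.38 and 7.63 FPKM. Whether strand was used in counting is not given in the sources used here, so reads of ERCC1 and CD3EAP may not have been separated. ERCC4, the catalytic subunit paired with ERCC1, had 1.15, 1.23, 0.883 and 0.859 FPKM. Like ERCC6, ERCC4 met the mean of 1 FPKM only through the libraries with IM. The helicases ERCC2 and ERCC3 of the transcription factor TFIIH varied by less than 1.5-fold, from 8.43 to 9.23 FPKM and from 5.79 to 6.71.

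**Figure D3:**
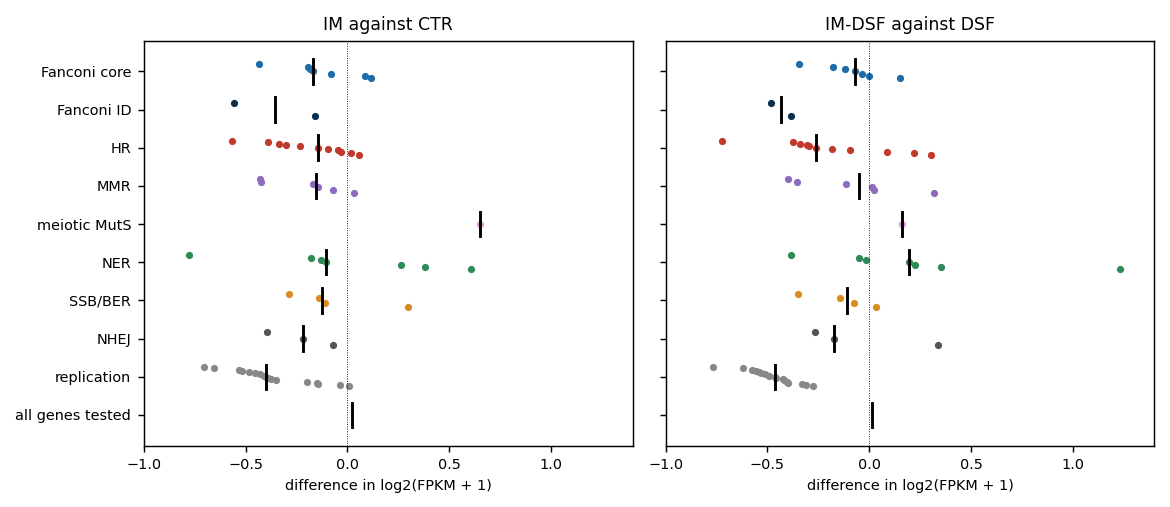
Differences in log2(FPKM + 1) by repair pathway in 2 contrasts that share no library; points are genes and bars are medians. Replication genes have medians of -0.40 in IM against CTR and -0.46 in IM-DSF against DSF, and the Fanconi clamp pair has -0.36 and -0.44.

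ERCC5 (ENSG00000134899; chromosome 13, 102844844 to 102876001), the nuclease that cuts on the 3′ side of a lesion, was the only repair gene past 1 log2 unit in any contrast. It had 15.5 FPKM in IM-DSF, 6.61 in IM, 6.02 in DSF and 12.1 in CTR. Both single-drug libraries were low, and the combination and CTR were high, a split whose share over all genes is not given here. IM was 0.548 times CTR (0.481 to 0.624), DSF was 0.498 times CTR (0.434 to 0.571), and the combination was 2.34 times IM (2.06 to 2.66) and 1.28 times CTR (1.15 to 1.43).

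The read-through gene BIVM-ERCC5 (chromosome 13, 102807354 to 102872398) shares 5213 exon bases with ERCC5 on the same strand and had the opposite pattern. It had 24.2 FPKM in IM and 19.4 in DSF and was listed at 0 in IM-DSF and CTR. Added together, ERCC5 and BIVM-ERCC5 gave 15.5 FPKM in IM-DSF, 30.9 in IM, 25.4 in DSF and 12.1 in CTR, so the single-drug libraries are the high ones once the pair is summed. BIVM, the upstream gene, had 7.13, 3.80, 2.83 and 4.58 FPKM. How the counting divided reads between these genes is not given in the sources used here, so the ERCC5 values are uncertain.

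**Figure D4:**
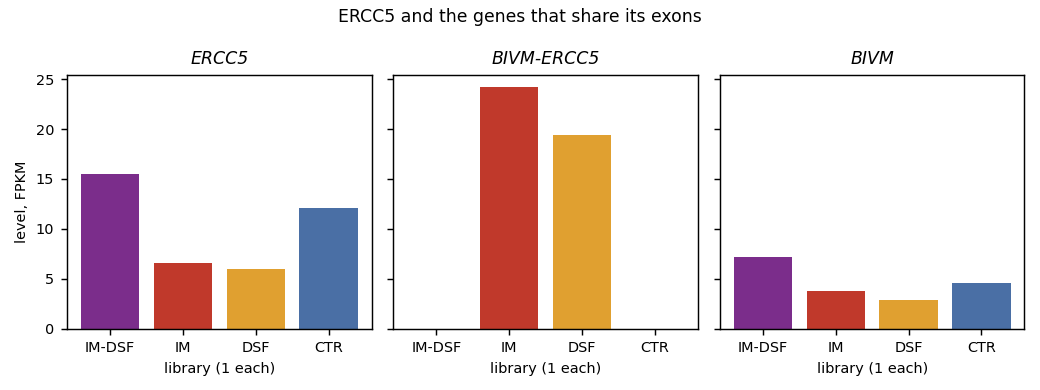
Levels in FPKM (vertical axis) of ERCC5, BIVM-ERCC5 and BIVM in the IM-DSF, IM, DSF and CTR libraries, 1 bar per library. BIVM-ERCC5 is listed at 0 in IM-DSF and CTR, the libraries where ERCC5 is high, and reaches 24.2 FPKM in IM.

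The abundant end joining and strand break repair genes XRCC6, XRCC5 and PARP1 were lower in the libraries that received IM. XRCC6 (chromosome 22, 41621119 to 41664048) had 92.5 FPKM in IM-DSF, 95.6 in IM, 111 in DSF and 126 in CTR. It was 0.759 times CTR in IM (0.725 to 0.794), 0.884 times CTR in DSF (0.845 to 0.925) and 0.830 times DSF in IM-DSF (0.789 to 0.873). A copy, XRCC6P2, had 6.14 to 8.29 FPKM, so a small part of the XRCC6 reads is uncertain. XRCC5 had 46.0, 46.6, 51.9 and 54.4 FPKM, the same order. Ku70 mRNA thus stood at 2.01 times Ku80 mRNA in IM-DSF (1.89 to 2.15), 2.05 in IM, 2.15 in DSF and 2.32 in CTR (2.20 to 2.44). XRCC4, the ligase scaffold, had 3.80 FPKM in IM-DSF, against 2.93 in IM, 2.80 in DSF and 3.12 in CTR. Its ratio of IM-DSF to CTR was 1.22, with a counting interval that included 1 (0.869 to 1.70).

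PARP1 (chromosome 1, 226360691 to 226408079) had 53.5 FPKM in IM-DSF, 59.1 in IM, 68.3 in DSF and 72.3 in CTR. The combination was 0.740 times CTR (0.680 to 0.803), 0.904 times IM (0.830 to 0.984) and 0.783 times DSF (0.719 to 0.851). PARP2, a smaller relative with the same activity, had 3.78, 4.01, 4.28 and 4.51 FPKM in that order of libraries, and the scaffold XRCC1 had 5.90, 6.22, 6.26 and 6.81. Counting intervals of the combination ratio included 1 for PARP2 (0.616 to 1.14) and XRCC1 (0.665 to 1.13). PARP3, a further relative that acts in end joining, was lowest in CTR at 1.39 FPKM, with 1.64 in IM-DSF, 1.94 in IM and 1.58 in DSF. The counting interval of IM against CTR for PARP3 included 1 (0.917 to 2.08).

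Repair genes were set beside genes of DNA copying and beside genes of like abundance. Of 17 replication genes, among them the MCM helicase subunits, 16 were lower in IM than in CTR (median -0.40), beside 46.9% of all genes. In IM-DSF against DSF all 17 were lower (median -0.46), beside 48.3%. Their summed level was 456 FPKM in IM-DSF, 512 in IM, 645 in DSF and 675 in CTR. Myeloid markers lay the other way, with 8 of the 10 listed being measured. All 8 were higher in IM than in CTR (median 0.68), beside 53.1% of all genes. In IM-DSF against DSF, 5 of these 8 were higher and 3 lower (median 0.14), beside 51.7% and 48.3% of all genes. The part of either shift in the repair gene values was not tested. Abundance also moved with the difference: among protein-coding genes averaging 20 FPKM or more the median was -0.13 in IM against CTR, and the 4 repair genes in that range had a median of -0.34. Between 5 and 20 FPKM the 18 repair genes had a median of -0.16, beside -0.02 for 3825 protein-coding genes. Between 1 and 5 FPKM the 19 repair genes had -0.08, beside 0.08 for 4241.

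The pairs of contrasts that share no library set each drug alone beside the same drug on top of the other. For IM, 24 of the 41 repair genes were lower and 7 higher with the drug in both settings, and 10 went in opposite directions. Over all genes tested, 33.0% were lower in both, 37.8% higher in both and 29.1% opposite. Across these 41 genes Pearson's r was 0.22 and Spearman's rho 0.49; without ERCC5 they were 0.63 and 0.61 across 40 genes, beside 0.43 and 0.53 across all 11004. For DSF, 14 were lower in both settings, 8 higher and 19 opposite, with r = -0.39 and rho = 0.01, and 0.12 and 0.09 without ERCC5. Over all genes tested the shares for DSF were 27.7%, 27.5% and 44.7%, with r = 0.06 and rho = 0.14, so the 19 opposite genes (46.3%) are close to the background. Genes are not independent replicates, and the points of each pair come from the same 4 libraries.

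**Figure D5:**
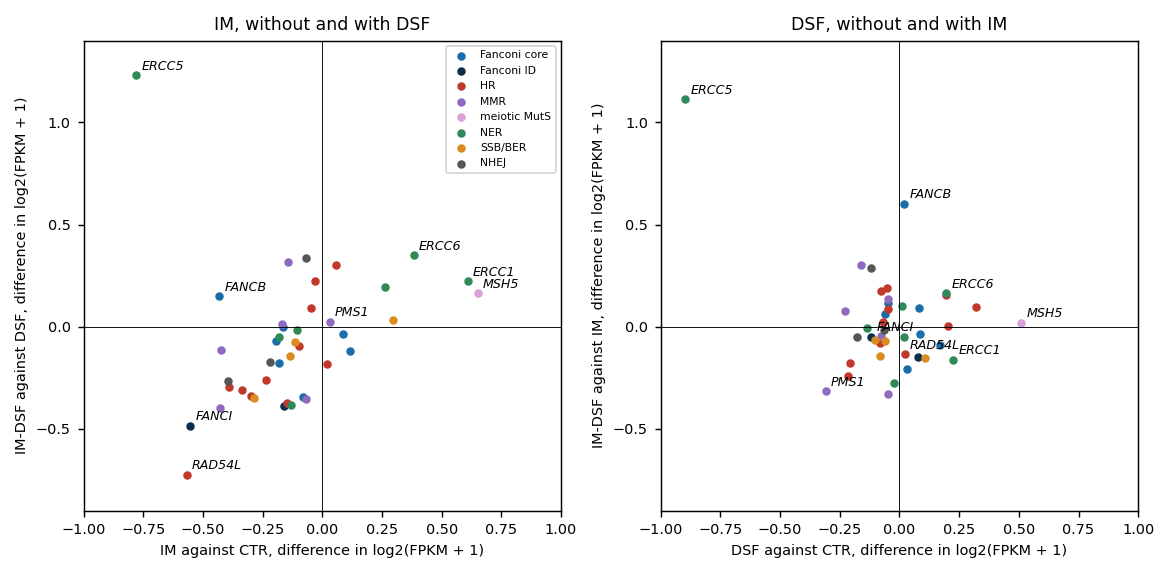
Differences in log2(FPKM + 1) of the 41 measured genes, coloured by pathway, in contrasts that share no library, for IM with and without DSF (left) and for DSF with and without IM (right). RAD54L and FANCI lie at the lower left of the IM panel, ERCC5 lies at the upper left of both panels, and the rest of the DSF panel is centred near 0.

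The departure from additivity is what remains of the combination's difference once the differences of each drug alone are subtracted. It passed 0.5 units in 2 of the 41 repair genes (4.88%), beside 13.1% of all genes. ERCC5 had the highest departure, at 2.01 units, with the read-through gene at its locus as above. FANCB followed at 0.58 units, from the low value in IM alone. On the plain log2 ratio scale the departure of FANCB was 0.75 (95% counting interval 0.29 to 1.22). Those of PMS2, at 0.54 (0.15 to 0.92), and BRCA2, at 0.32 (0.08 to 0.56), also lay above 0, as did that of XRCC6 at 0.13 (0.03 to 0.23). MSH5 had the lowest among measured genes, at -0.61 (-1.10 to -0.12), and FANCD2, at -0.25 (-0.49 to -0.0050), also lay below 0. Variation between cultures is outside these intervals, so an abundant gene such as XRCC6 can lie apart from 0 at a small departure. The share of all genes with such intervals is not given here. The PMS2 and MSH5 values are uncertain, as above.

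Partner genes of the same pathways were counted in the same way. Of 100 measured partner entries, 66 were lower in IM than in CTR, beside 46.9% of all genes, with a median of -0.10. There 0 passed 0.5 units upward (9.38% of all genes) and 5 downward (5.67%), the latter close to its share. In IM-DSF against DSF, 65 of the 100 were lower (48.3% of all genes), 2 passed 0.5 units upward (7.66%) and 12 downward (6.92%). UBE2T, the conjugating enzyme that passes ubiquitin to FANCD2, had 16.2 FPKM in IM-DSF, 18.1 in IM, 27.0 in DSF and 30.2 in CTR. CLSPN, claspin, the mediator of checkpoint signalling by ATR, had 15.0, 17.0, 22.6 and 24.9 FPKM. Both were lowest in the libraries with IM, but they are named here for passing 0.5 units downward in IM against CTR. Their low IM values therefore follow from that choice, and the share of all genes with this split is not given here.

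Other partners differed along other lines. RFC2, a clamp loader subunit, was highest in CTR, with 14.3, 12.1 and 14.8 FPKM in IM-DSF, IM and DSF, against 21.9 in CTR. RAD51AP1, which acts in homologous recombination, had 6.27, 5.26, 6.42 and 8.55 FPKM in the 4 libraries. RPA3, the small subunit of the single-strand binding protein, was lowest in the combination at 4.03 FPKM, against 6.47 in IM, 7.46 in DSF and 7.27 in CTR. APEX1, the endonuclease of base excision repair, had 11.0, 8.41, 11.7 and 6.72 FPKM and was lowest in CTR. UVSSA, which stabilises CSB, was highest in the combination at 2.87 FPKM, against 1.70 in IM, 1.56 in DSF and 1.20 in CTR. MGMT, which removes alkyl groups from guanine, had 2.60, 1.87, 1.95 and 1.51 FPKM.

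In DSF-treated cells, MBD4 and MDC1 were also lower with IM. MBD4, a glycosylase for mismatched thymine, had 5.23 FPKM in IM-DSF and 8.80 in DSF, and MDC1, the scaffold that reads marked chromatin at breaks, had 15.8 and 24.6. TDG, another thymine glycosylase, was highest in IM at 9.34 FPKM, with 4.76 in IM-DSF, 4.85 in DSF and 6.50 in CTR. ATRIP (ENSG00000164053), the partner of ATR, had 2.90, 8.31, 3.35 and 5.92 FPKM, GTF2H4, a TFIIH subunit, had 5.04, 9.29, 7.63 and 9.98, and POLD4, a polymerase delta subunit, had 2.09, 1.28, 0.503 and 0.620. All 3 overlap another gene on the same strand, so their values are uncertain. A second ATRIP entry with the same start (ENSG00000282827) had 1.38, 0.161, 1.48 and 0.184 FPKM, under the 1 FPKM mean. It was lowest in IM and CTR, where the first entry was highest. POLD4 met the mean of 1 FPKM only through IM-DSF and IM.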

How the data were processed

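The authors deposited 1 table of FPKM for 50868 genes with 4 value columns, per the file headers. The submitters' processing notes name the build GRCh38.p14 and the aligner HISAT2 2.0.4, and the labels' protocols a stranded mRNA kit. No counter, annotation release, gene length or strand setting could be found (not given in the sources used here). The denominators come from the smallest step of FPKM times exon length (GENCODE 29) in genes with a single exon. With them, 99.2% to 99.5% of genes with a single transcript of several exons also gave whole numbers of fragments, within 0.05. Fragment numbers of the repair genes are approximate: FPKM times the mean length of the gene's protein-coding transcripts. From these come exact conditional binomial 95% intervals, which cover counting error only, and Wald intervals for departures.

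Differences were computed as log2(FPKM + 1) for 11004 genes averaging 1 FPKM or more, of which 9365 were protein-coding, with Python 3.11.15, pandas 2.3.3 and scipy 1.17.1. The size rules were 1 and 0.5 log2 units. The code was tested on simulated counts, which does not calibrate these rules against the spread between cultures. The members, pathway groups and partner lists were chosen with earlier results of these data known. Promoters are from RefSeq (GRCh38.p14), and exon overlaps from GENCODE 29. Gene coordinates in GENCODE 29 matched the deposited ones for 39 of the 45 genes. ERCC5, FANCB, FANCC and FANCE are among those that differ, so their overlaps and counting intervals are less certain. Members are reported one by one, except some that are not reported here and enter only the counts, medians and unlabelled points; partner genes are named when past 0.5 units, at most 4 per direction and contrast. Other settings tried were TPM, trimmed-mean or median-of-ratios factors, a pseudocount of 0.1, a filter at 5 FPKM or none, members without same-strand exon overlap (33 of 41) and, chosen after seeing the data, all members without ERCC5.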

Additional observations from a re-analysis of the deposited data

Results flagged for a closer look

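ERCC5 was the only repair gene whose difference had opposite signs, each past 0.5 log2 units, for the same drug with and without the other. For IM it was 1.23 in IM-DSF against DSF and -0.78 in IM against CTR. For DSF it was 1.11 in IM-DSF against IM and -0.90 in DSF against CTR. The difference between the settings was not tested, since each group has 1 library. BIVM-ERCC5, which shares exons with ERCC5, was listed at 0 in IM-DSF and CTR and had 24.2 FPKM in IM and 19.4 in DSF; its part in the result was not tested.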

How the results depend on the processing

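No paired analysis was possible because each group has 1 library. The medians of the repair genes kept their sign in every alternative for 4 of the contrasts: IM against CTR (-0.21 to -0.13), IM-DSF against DSF (-0.15 to -0.07), DSF against CTR (-0.10 to -0.05) and IM-DSF against CTR (-0.26 to -0.09). In IM-DSF against IM the median ranged from -0.05 to 0.03. Counts of genes past a size rule are small and moved more, since many values lie near the threshold. Past 0.5 units in IM-DSF against CTR there were 5 genes, and 8 with a pseudocount of 0.1, with TPM or with trimmed-mean factors, 9 with median-of-ratios factors and 2 at a mean of at least 5 FPKM. In IM against CTR there were 5, and 8 with the pseudocount or TPM and 3 at 5 FPKM or without overlapping genes. In DSF against CTR there were 2, and 1 at 5 FPKM, with either set of factors or without ERCC5, and 0 without overlapping genes; with TPM 1 gene, ERCC5, passed 1 unit there. In IM-DSF against IM there were 2, and 1 at 5 FPKM, without overlapping genes or without ERCC5. In IM-DSF against DSF there were 2, and 6 with the pseudocount, 4 with TPM and 1 without overlapping genes or without ERCC5. The 1 gene past 1 unit in each of the last 2 contrasts was ERCC5, and 0 passed when it or overlapping genes were left out. Departures past 0.5 units numbered 2, and 5 with the pseudocount, 4 with TPM and 1 at 5 FPKM, without overlapping genes or without ERCC5. In IM-DSF against IM, TPM moved the split to 24 higher and 17 lower, beside 19 and 22 as reported. Shares of all genes under these other settings are not given here, so the counts have no background beside them. The setting without ERCC5 was chosen after seeing the data. Low genes such as ERCC6, RAD51C and ERCC8 rest on few fragments, and the smallest approximate number for a measured gene was 11.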
